A study of Mus musculus with 11 samples.

Results

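Methionine, phenylalanine, tyrosine and tryptophan tRNAs were examined as the 43 of 433 tRNA genes whose name in the count tables ends in one of these amino acids and its anticodon. They comprised 18 MetCAT, 7 PheGAA, 10 TyrGTA and 8 TrpCCA genes. The measurement was small RNA sequencing of the 20- to 200-base RNA fraction from the frontal lobe of the brain of C57BL/6 mouse embryos, after removal of bound amino acids. Frontal lobes at E18.5 came from 4 Nsun2-/- and 4 wild-type (WT) samples, and at E13.5 from 2 Nsun2-/- samples and 1 WT sample. Nsun2-/- embryos lack NSUN2, an enzyme that methylates cytosines in tRNAs, and the study asked whether tRNA cleavage changed in its absence. The methods describe both a D014D11 line and an MBKW line, and the labels do not give the line of these samples or say whether animals were pooled. The tables hold tRNA genes only, so neither Nsun2 mRNA nor brain cell markers could be used to check genotype or tissue.

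A tRNA carries its amino acid on a 3′ CCA end and reads mRNA with the anticodon in the middle of the molecule. Methionine is served by a pair of distinct tRNAs with the same CAT anticodon: the initiator, which starts translation, and the elongator, which reads methionine codons inside the message. Tyrosine tRNA genes of mammals carry a short intron next to the anticodon that must be spliced out. Phenylalanine and tryptophan tRNAs of mammals have no intron, and tryptophan is read by a single anticodon, CCA, which is unrelated to the CCA end.

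Read sequences that the study lists for these genes show parts of the molecules that were sequenced and how similar the copies are. The study describes its lists as small RNAs from tRNAs that differed in abundance between the genotypes. The listed reads are thus a selected set and do not show the make-up of all reads. Printed reads are from the E13.5 list, except the tryptophan read (E18.5) and the phenylalanine read (both stages). The lists could be read in part only, and 26 of the 43 genes had at least 1 listed sequence, with 55 different sequences in all, 44 of which ended in CCA. The letters are those of reads, so a base may differ from the gene where a modified base was misread. The first lines show a full-length initiator methionine tRNA with its anticodon in capitals, and the same 72-base body followed by 10 other bases in capitals in place of CCA. Those 10 bases were not compared with the genome.
chr13.trna111-MetCAT: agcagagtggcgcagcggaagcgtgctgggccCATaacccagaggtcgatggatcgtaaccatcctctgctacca
chr13.trna947-MetCAT: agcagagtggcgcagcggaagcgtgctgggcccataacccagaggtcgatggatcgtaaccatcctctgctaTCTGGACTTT

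Single bases separated 5′ reads listed for different initiator copies. These 31-base reads, shown because they show how alike the copies are, differed at the capital only. The first was listed for 1 gene and the second for 3 genes, but the first also opens both full-length reads above, which are listed for other copies, so neither kind assigns a read to a single copy by its sequence. Whether the capital is a difference between genes or a misread base was not tested.
chr13.trna82-MetCAT: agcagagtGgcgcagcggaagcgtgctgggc
chr3.trna792-MetCAT: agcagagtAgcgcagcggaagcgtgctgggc

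Phenylalanine and tryptophan reads are shown with the anticodon (phenylalanine) or the CCA end (tryptophan) in capitals. The phenylalanine sequence of 49 bases was listed for 5 of the 7 PheGAA genes, and the tryptophan sequence of 42 bases for 1 gene.
chr5.trna1315-PheGAA: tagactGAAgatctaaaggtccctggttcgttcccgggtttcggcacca
chr11.trna1880-TrpCCA: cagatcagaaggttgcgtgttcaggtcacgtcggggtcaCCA

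Tyrosine reads included an unspliced precursor. The first read below, of 52 bases, began 4 bases before the acceptor stem, which was located as the reverse complement of the 7 bases before the discriminator base and CCA of the second read. It ran 12 bases past the anticodon (capitals) into the stretch where the intron lies. The second read, of 38 bases, is the 3′ part of the same gene up to its CCA end, in capitals.
chr5.trna109-TyrGTA: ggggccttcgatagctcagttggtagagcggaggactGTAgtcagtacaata
chr5.trna109-TyrGTA: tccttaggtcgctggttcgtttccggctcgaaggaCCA

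These tyrosine 3′ ends of 30 bases, each listed for another copy, differed only in the 2 capitals after ttcg, in the loop of the T arm. Tyrosine tRNAs commonly carry a methylated adenosine in this loop, which is often misread in sequencing. The 38-base read of chr5.trna109 above differs from its 30-base read within these 2 positions, so they do not by themselves mark a copy, and whether they are bases of the genes was not tested.
chr5.trna109-TyrGTA: tcgctggttcgTCtccggctcgaaggacca
chr13.trna106-TyrGTA: tcgctggttcgGAtccggctcgaaggacca
chr14.trna191-TyrGTA: tcgctggttcgGTtccggctcgaaggacca

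The 4 amino acids together held 6939 of the 62885 counts of the 11 libraries. Library totals lay between 4011 and 9827 counts, so that 3 counts, the smallest share taken as detectable, stood for 0.031% to 0.075% of a library. The 43 genes took 9.43% to 10.33% of the counts in the 3 E13.5 libraries and 10.78% to 12.69% in the 8 E18.5 libraries. Of the 43 genes, 39 had at least 1 count, 25 had counts in every library, and 4 methionine genes were at 0 throughout. The methods state that only reads with a single place in the genome were kept, while the tables were counted with multi-mapping reads allowed and some listed reads stand under several genes. Counts of single copies are therefore uncertain where copies are alike, and a count of 0 does not show that a gene is silent.

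Methionine carried most of the counts and tryptophan the fewest. MetCAT genes held 4176 counts, or 60.2% of the counts of the 43 genes. TyrGTA genes held 1817 counts (26.2%), PheGAA genes 739 (10.6%) and TrpCCA genes 207 (3.0%). Per 100 nt of counted interval, methionine took 6.30% ± 0.28 of the library in WT at E18.5, against 2.26% ± 0.28 for tyrosine, 1.06% ± 0.10 for phenylalanine and 0.27% ± 0.03 for tryptophan (mean ± SD, n = 4). The ranges of the 4 amino acids did not overlap on this scale in any of the groups.

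**Figure D1:**
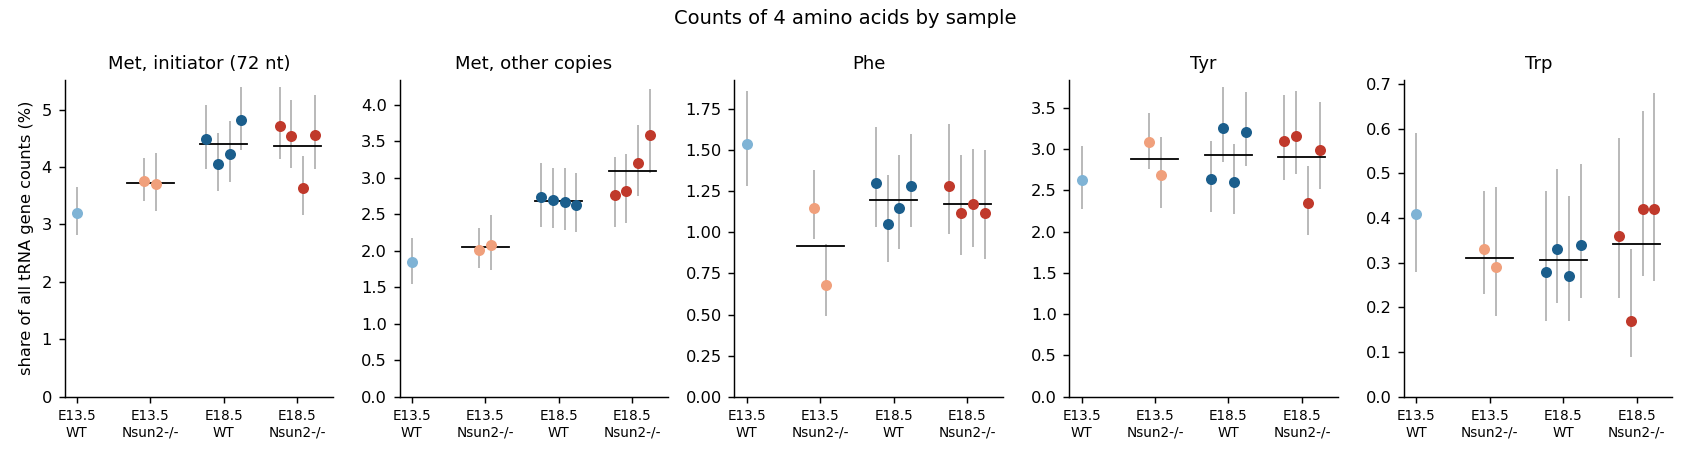
Share of all tRNA gene counts (%) held by initiator-length methionine, other methionine, phenylalanine, tyrosine and tryptophan tRNA genes in each of the 11 samples, grouped by stage and genotype. Points are samples, grey bars are 95% Wilson intervals that cover counting error only, and black lines are group means where n is above 1. All 8 E18.5 samples lie above the 3 E13.5 samples for other methionine copies (2.63% to 3.59% against 1.84% to 2.08%), and the tyrosine ranges of both stages overlap.

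Few copies carried each amino acid. For methionine, chr15.trna913 (chr15:57807518-57807630) held 1218 counts, or 29.2% of the amino acid, followed by chr3.trna792 (chr3:90279762-90279873) with 1150, chr13.trna947 (chr13:23622197-23622308) with 833 and chr13.trna90 (chr13:22066881-22066992) with 291. The first of these is an elongator copy and the next 3 have the initiator length. Positions are the counted intervals in mm9, the build that the header of the tables names, and lie 20 bases beyond the tRNA gene on each side.

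For tyrosine, chr5.trna109 (chr5:31190436-31190564) held 684 counts (37.6%), chr14.trna191 (chr14:51709144-51709273) 354, chr3.trna28 (chr3:19528762-19528890) 245 and chr13.trna106 (chr13:23558925-23559054) 180. For phenylalanine, chr5.trna1315 (chr5:125886405-125886517) held 259 counts (35.0%), chr10.trna961 had 123, chr19.trna106 had 113 and chr13.trna988 had 105. Counts of phenylalanine copies are uncertain as values of single genes, since the read printed above matched 5 of them. For tryptophan, chr10.trna857 (chr10:90644137-90644248) held 98 counts (47.3%), chr11.trna1880 held 55 and chr11.trna398 held 28. The leading pair of copies took 56.7% of the methionine, 51.7% of the phenylalanine, 57.1% of the tyrosine and 73.9% of the tryptophan counts.

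**Figure D2:**
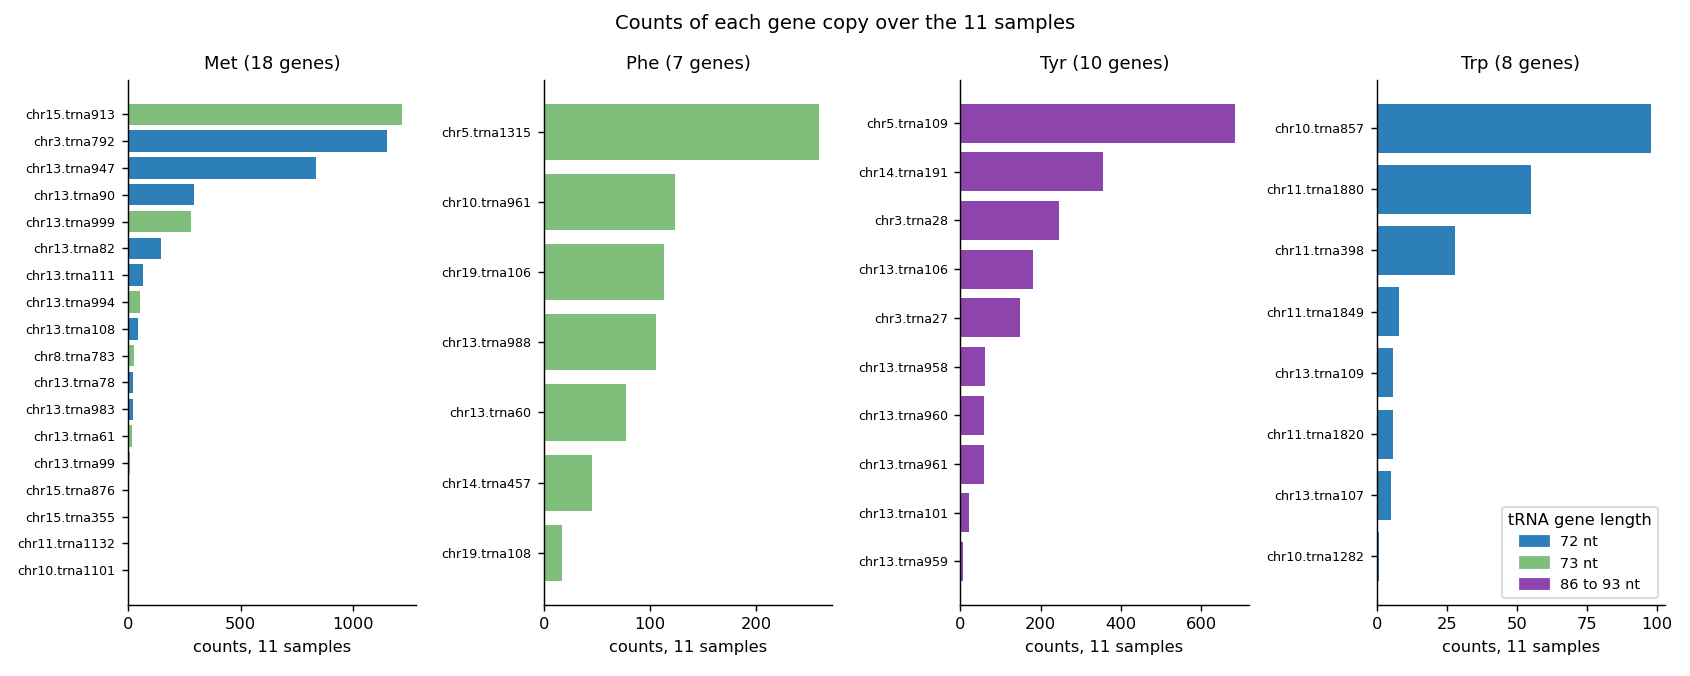
Counts of each gene copy summed over the 11 samples (horizontal axis, a separate scale for each amino acid), with copies in order of their counts and colours for the length of the tRNA gene. Methionine counts fall from 1218 for chr15.trna913 to 0 for 4 copies, and all 10 tyrosine copies have the long genes of 86 to 93 nt.

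Chromosome 13 held 21 of the 43 genes and 34.0% of their counts, between positions 21253254 and 23622308. In the whole table it held 106 of 433 genes and 19.8% of the counts. The contribution differed by amino acid, with 42.7% of the methionine counts, 24.6% of phenylalanine, 21.2% of tyrosine and 5.3% of tryptophan on this chromosome. Its 11 methionine genes included 7 of the 9 initiator-length copies, which are the 72-nt MetCAT genes. Those 9 copies held 2573 counts, or 285.9 per gene, and the other 9 methionine genes held 1603, or 178.1 per gene. Among the other methionine genes, chr15.trna913 alone held 76.0% of the counts.

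Interval lengths separated tyrosine from the other 3 amino acids. After subtraction of the 40 flanking bases, all 10 TyrGTA genes measured 86 to 93 nt, against 73 nt for every PheGAA gene and 72 nt for every TrpCCA gene. The lengths of the 10 RefSeq tyrosine tRNA genes of GRCm38 were all matched by these lengths, although the positions were not on that build. One tyrosine gene measured 86 nt, 2 measured 88 nt, 4 measured 89 nt, 2 measured 90 nt and 1 measured 93 nt. The 89-nt genes held 994 of the 1817 tyrosine counts and the 90-nt genes 534. A single methionine gene, of 93 nt, was as long, and it had no count.

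Outside leucine, serine and selenocysteine, whose tRNAs are long without an intron, and genes annotated as suppressors, 20 genes of the table were more than 10 nt longer than the usual interval, and 11 of these were the 10 tyrosine genes and the long methionine gene. The other 9 were 4 of 5 ArgTCT genes (85 to 87 nt), 4 of 5 IleTAT genes (93 to 96 nt) and 1 of 19 AlaAGC genes (83 nt, with no count). Reads were placed without gaps and with at most 2 mismatches. A read that crosses the splice junction of a mature tyrosine tRNA by more than a few bases would thus generally not be placed on the gene. Apart from shorter crossings, placed tyrosine reads lie in the 5′ part, in the 3′ part or on a precursor, and the counts do not separate these.

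Loss of NSUN2 at E18.5 was compared in 4 Nsun2-/- against 4 WT samples. No methionine, phenylalanine, tyrosine or tryptophan gene passed the test: 0 of the 13 copies tested were called by the quasi-likelihood test of edgeR, adjusted by Benjamini-Hochberg over the 106 genes tested, of which 9.43% were called (5.66% higher and 3.77% lower). DESeq2 also called 0 of them, and 1 of the 13 had an unadjusted p under 0.05 in edgeR, against 19 of the 106 genes. The other 30 copies did not pass the filter on low counts, and no tryptophan copy did. The median log2 fold change was 0.05 over the 13 copies and 0.02 over all 106 genes. In these bulk samples, fewer cells of a type and less RNA per cell cannot be told apart. Counts per gene add full-length reads, fragments and precursor reads together, so they cannot show whether cleavage changed. The study instead lists single small RNAs that differed between the genotypes, and 26 of the 43 genes had at least 1 listed sequence. Differences of single fragments were not tested here. The same limit holds for all genotype comparisons below.

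The copy with the unadjusted p under 0.05 was the elongator chr15.trna913. It took 2.11%, 2.12%, 2.51% and 2.89% of the library in the Nsun2-/- samples and 2.02%, 2.11%, 1.94% and 1.94% in the WT samples. Nsun2-/- replicates 3 and 4 were the highest, and the lowest Nsun2-/- value met the highest WT value. Its log2 fold change was 0.28 ± 0.11 (SE), with an adjusted p of 0.109 (edgeR), and the adjusted p ranged from 0.0971 to 0.444 over the alternatives.

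Sums per amino acid gave the same picture at E18.5. Counts were summed into 45 families of 1 amino acid and anticodon, of which edgeR called 13.3% (8.89% higher and 4.44% lower). It called 0 of the 4 sums, with 0 unadjusted p-values under 0.05 among them, against 12 among the 45 families. DESeq2 called 0 of the 4 sums. Methionine took 7.46% ± 0.54 of the library in Nsun2-/- and 7.08% ± 0.31 in WT samples (SD, n = 4 each). Its log2 fold change was 0.08 (95% interval -0.08 to 0.24), and the adjusted p of edgeR was 0.675. Phenylalanine took 1.18% ± 0.08 and 1.20% ± 0.12, with a log2 fold change of -0.02 (interval -0.28 to 0.24). Those differences were smaller than the spread between samples.

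Tyrosine took 2.90% ± 0.38 of the library in Nsun2-/- and 2.93% ± 0.36 in WT samples, with a log2 fold change of -0.02 (interval -0.25 to 0.21). For tryptophan the shares were 0.34% ± 0.12 and 0.30% ± 0.03 on 8 to 21 counts per library, and the interval of the log2 fold change, -0.51 to 0.83, was the widest of the 4. Signs of the phenylalanine and tyrosine changes turned under some alternatives, and both stayed short of the threshold.

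Methionine was also fitted as its 2 classes. Initiator-length copies took 4.37% ± 0.49 of the library in Nsun2-/- and 4.40% ± 0.33 in WT samples, a log2 fold change of 0.02 ± 0.09 (SE), which turned negative under some scalings. The other methionine copies took 2.77%, 2.82%, 3.20% and 3.59% in the Nsun2-/- samples and 2.73%, 2.69%, 2.67% and 2.63% in the WT samples. All 4 Nsun2-/- values lay above all 4 WT values. The gap between the closest pair was smaller than the spread among the Nsun2-/- samples. How many other families separated the genotypes in this way was not counted, so the separation is not shown to be particular to these copies. Over the 11 samples, chr15.trna913 held 76.0% of the counts of this class. The log2 fold change of this sum was 0.23 ± 0.10, which did not pass the adjustment (edgeR, unadjusted p 0.0232, adjusted p 0.107).

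Shares within an amino acid, which need no scaling between libraries, were compared by exact two-sided permutation tests, whose smallest possible p-value with 4 samples a group is 0.0286. Initiator-length copies made up 58.47% ± 4.67 of the methionine counts in Nsun2-/- and 62.05% ± 1.92 in WT samples (n = 4 each, exact permutation p 0.286, adjusted over 5 shares 0.714). The leading tyrosine copy, chr5.trna109, made up 43.37% ± 3.42 and 44.79% ± 3.63 of the tyrosine counts (exact permutation p 0.6, n = 4 each). None of the 5 shares differed by an unadjusted p under 0.05, and the ranges of all 5 overlapped. After adjustment over the 5 shares, even the smallest possible p-value would not pass for a single share. A change in 1 share alone could therefore not be called.

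At E13.5 the genotypes were compared with 2 Nsun2-/- samples and 1 WT sample, so that the WT sample was assumed to vary like the other groups. edgeR called 0 of the 155 genes tested (0%), the 20 copies of these amino acids included, while 11 genes and 2 of the 20 copies had an unadjusted p under 0.05. Those 2 were chr5.trna1315-PheGAA, with a log2 fold change of -0.98 ± 0.33 (SE, adjusted p 0.196), and the initiator copy chr13.trna947, with 0.62 ± 0.23 (adjusted p 0.266). DESeq2 was not run for this comparison.

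The phenylalanine sum differed most between single libraries at E13.5. It took 1.15% and 0.68% of the library in the Nsun2-/- samples and 1.54% in the WT sample. The WT library was the highest of all 11, and Nsun2-/- replicate 2 was the lowest, with 37 counts. The log2 fold change was -0.61 ± 0.22 (edgeR, adjusted p 0.248 over 47 families, of which 0% were called, with 7 unadjusted p-values under 0.05). Without Nsun2-/- replicate 1 it was -1.09, with an adjusted p of 0.0179, and this value rests on 1 library of each genotype.

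The difference of the genotype effect between stages was tested as an interaction in 1 fit of the 11 samples. Of the 20 copies tested, 0 were called by edgeR, against 0.645% of the 155 genes. An unadjusted p under 0.05 was reached by 2 of the 20 copies and by 18 of the 155 genes. For the sums, edgeR called 0 of the 4 sums, against 4.26% of the 47 families. An unadjusted p under 0.05 was reached by 7 of the 47 families and, among the 4 sums, by phenylalanine alone. Its log2 difference, E18.5 minus E13.5, was 0.61 ± 0.27 (adjusted p 0.205), and it was 1.09 with an adjusted p of 0.0308 without Nsun2-/- replicate 1 of E13.5.

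Stage was compared with 8 E18.5 against 3 E13.5 samples in an additive fit with genotype. In this comparison 4 of the 20 copies tested were called by edgeR, against 21.9% of the 155 genes tested, so the share of these copies was close to that of all genes. The number of all genes or families whose ranges did not overlap between stages was not counted. The 3 higher calls stood against 11.6% of all genes and the 1 lower call against 10.3%. The labels give no sequencing batch, and stage cannot be told apart from any batch that went with it. Values at E13.5 are given for Nsun2-/- replicates 1 and 2 and then WT. Median log2 fold changes were 0.08 over the 20 copies and -0.04 over all genes tested.

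Among tyrosine copies, the counts of one rose and those of another fell. Listed 3′ reads of these copies differed only at 2 bases that do not by themselves mark a copy, so their single counts are uncertain. Whether reads moved between like copies was not tested. The copy chr5.trna109 took 0.70%, 0.80% and 0.70% of the library in the E13.5 samples and 1.08% to 1.43% in the 8 E18.5 samples. No E18.5 sample overlapped with E13.5. Its log2 fold change was 0.75 ± 0.15 (SE, edgeR adjusted p 0.000206), with adjusted p-values up to 0.00999 over the alternatives.

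The copy chr13.trna106, in the tyrosine cluster of chromosome 13, had 41, 19 and 38 counts in the E13.5 samples and 5 to 14 in the E18.5 samples. Its share of the library was 0.42%, 0.35% and 0.56% at E13.5 and 0.09% to 0.30% at E18.5, again without overlap. The log2 fold change was -1.20 ± 0.25 (edgeR adjusted p 0.000306), and it ranged from -1.56 to -0.91 over the alternatives, with adjusted p-values up to 0.0476.

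The tyrosine sum itself did not pass. It took 2.88% ± 0.28 (n = 2) of the library in Nsun2-/- and 2.63% (n = 1) in WT samples at E13.5, against 2.90% ± 0.38 and 2.93% ± 0.36 (n = 4 each) at E18.5. The log2 fold change of the sum was -0.01 (95% interval -0.23 to 0.22, edgeR adjusted p 0.961), with a sign that turned under several alternatives. None of the other 5 tyrosine copies tested passed with all samples. Among them chr13.trna958 (-0.68) passed the count filter through E13.5 Nsun2-/- replicate 1 only, with 19 counts against 2 to 7 elsewhere. Its direction is therefore not read as a change. The log2 fold changes of the others lay between -0.54 and 0.10. chr3.trna27 was called lower without E13.5 WT replicate 1 (-0.92, edgeR adjusted p 0.0476) and in Nsun2-/- samples alone (-0.92, adjusted p 0.039). Both settings take the stage change from Nsun2-/- samples only, so they are not separate results. chr14.trna191 was called lower without E18.5 Nsun2-/- replicate 4 (-0.52, adjusted p 0.0321).

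Within the tyrosine counts, chr5.trna109 made up 22.77%, 29.93% and 26.82% at E13.5 and a lowest, median and highest share of 40.27%, 43.80% and 50.00% at E18.5. The copy chr13.trna106 made up 13.53%, 12.93% and 21.23% at E13.5 and 3.52%, 6.86% and 9.40% at E18.5. Both copies had ranges without overlap between the stages, and the ranges of the other 8 copies overlapped. How many copies of other amino acids separate in this way was not counted, so the separation is not shown to be particular to tyrosine. The 6 chromosome 13 copies together went from 27.93% ± 4.27 (SD, n = 3) to 17.26% ± 3.35 (n = 8), with overlapping ranges.

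The mean share of chr5.trna109 was 26.51% ± 3.59 (n = 3) at E13.5 and 44.08% ± 3.36 (n = 8) at E18.5. The exact two-sided permutation p was 0.0121, the smallest that 8 against 3 samples can give, and 0.0606 after adjustment over the 5 shares. This test was chosen after the data had been seen, and the copy had been picked by its total over all samples, most of which were from E18.5. The difference of 17.57 points lay between 15.71 and 19.29 points when any sample was left out, was 17.63 with an adjusted exact permutation p of 0.0417 without E18.5 WT replicate 4, and was 17.02 in Nsun2-/- samples alone, where the smallest possible p-value (4 against 2 samples) is 0.133.

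**Figure D3:**
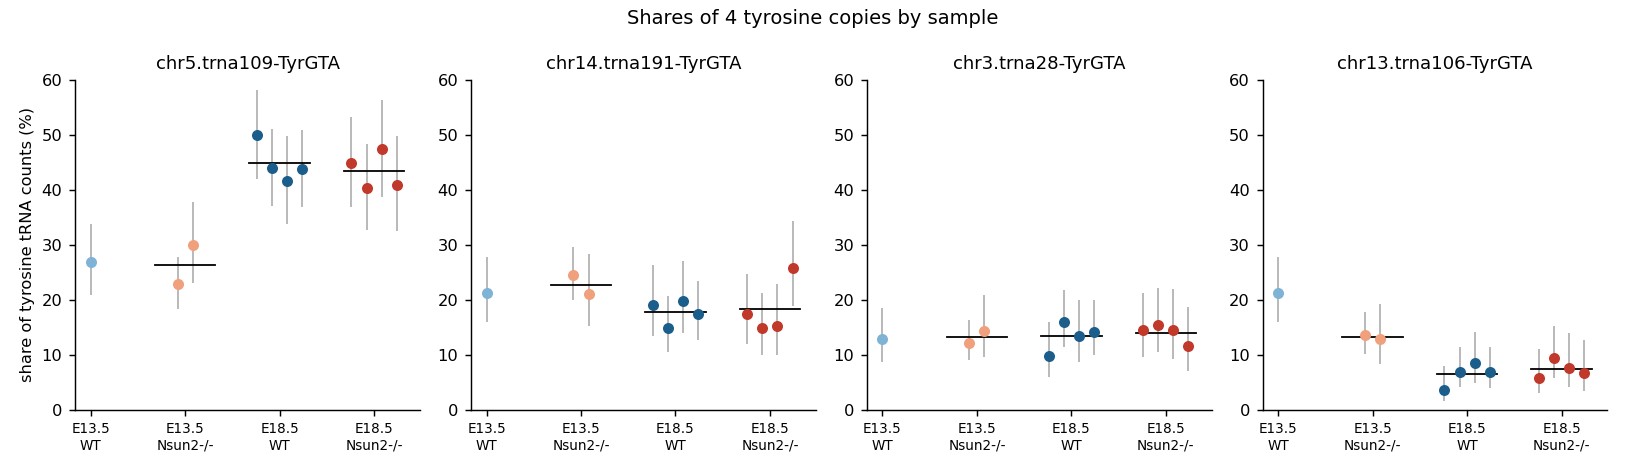
Share of the tyrosine tRNA counts (%) held by the 4 tyrosine copies with the most counts, in each of the 11 samples by stage and genotype. Points are samples, grey bars are 95% Wilson intervals for counting error, and black lines are group means where n is above 1. The copy chr5.trna109 lies at 22.77% to 29.93% at E13.5 and 40.27% to 50.00% at E18.5, chr13.trna106 lies lower at E18.5 in every sample, and the other 2 copies overlap between stages.

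Methionine was higher at E18.5. Its sum took 5.77% and 5.78% of the library in the Nsun2-/- samples and 5.04% in the WT sample at E13.5, and 6.75% to 8.15% at E18.5, without overlap. The log2 fold change was 0.35 ± 0.08 (SE, edgeR adjusted p 0.0013), and 38.3% of the 47 families were called in this comparison. In Nsun2-/- samples alone it was 0.30, with an adjusted p of 0.0562.

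The sum of the other methionine copies was called higher, and the sum of initiator-length copies did not pass. The other copies took 2.01%, 2.08% and 1.84% of the library at E13.5 and 2.63% to 3.59% at E18.5. This sum had a log2 fold change of 0.50 ± 0.09 (SE), which passed in edgeR with an adjusted p of 0.00022. Most of its counts were of chr15.trna913, and the other tested copy of this class was not called (0.34 ± 0.20, edgeR adjusted p 0.225). Initiator-length copies took 3.75%, 3.70% and 3.20% at E13.5 and 3.64% to 4.81% at E18.5, with a log2 fold change of 0.24 ± 0.10 (adjusted p 0.0624). That sum passed with library size as the only scaling (0.31, adjusted p 0.0139) and with 4 single samples left out, E13.5 Nsun2-/- replicate 1, E18.5 Nsun2-/- replicate 3 and E18.5 WT replicates 1 and 3 (adjusted p 0.00409 to 0.0433).

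The share of initiator-length copies among the methionine counts was 64.22% ± 0.78 (n = 3) at E13.5 and 60.26% ± 3.82 (n = 8) at E18.5, a difference of -3.96 points. It did not hold after adjustment (exact permutation p 0.0485, adjusted p 0.121). The ranges overlapped. Without E18.5 WT replicate 4 they did not (63.06% at most at E18.5, 63.56% at least at E13.5), and the difference was -4.58 points. The adjusted exact permutation p of 0.0417 was reached only because the share of chr5.trna109 separated fully too, and neither share would pass by itself.

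One copy of each methionine class was called higher. Over the 11 samples, chr15.trna913 held 76.0% of the counts of its class and chr3.trna792 held 44.7%. Their changes are therefore part of the class sums and not separate support for them. The elongator copy chr15.trna913 took 1.56%, 1.62% and 1.29% of the library at E13.5 and 1.94% to 2.89% at E18.5, and its log2 fold change was 0.56 ± 0.13 (edgeR adjusted p 0.00109). The initiator copy chr3.trna792 took 1.53%, 1.42% and 1.39% at E13.5 and 1.65% to 2.49% at E18.5, with 0.44 ± 0.13 (adjusted p 0.00998). Neither range overlapped between stages. For chr3.trna792 the call held in 15 of 20 alternatives. It was lost without E13.5 Nsun2-/- replicate 1 (edgeR adjusted p 0.0617), E13.5 WT replicate 1 (0.0708) or E18.5 Nsun2-/- replicate 4 (0.0798). It was also lost in Nsun2-/- samples alone (0.071) and between the WT samples, of which 1 is from E13.5. Leaving out E13.5 WT replicate 1 also takes the stage change from Nsun2-/- samples only, so these losses are not separate.

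The second initiator copy by counts did not follow the first. chr13.trna947, for which the read with 10 bases in place of CCA is listed, took 1.47%, 1.46% and 0.98% of the library at E13.5 and 1.10% to 1.63% at E18.5. Its log2 fold change was 0.02 ± 0.14 (edgeR adjusted p 0.926), with a 95% interval of -0.27 to 0.31. The difference between these 2 copies was not tested.

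Phenylalanine and tryptophan sums did not pass by stage. Phenylalanine took 1.15%, 0.68% and 1.54% of the library at E13.5 and 1.05% to 1.30% at E18.5, so that every E18.5 value lay within the E13.5 range. Its log2 fold change was -0.04 (95% interval -0.35 to 0.27), and it was 0.23 without the E13.5 WT sample. Tryptophan took 0.33%, 0.29% and 0.41% at E13.5 and 0.17% to 0.42% at E18.5, with a log2 fold change of -0.16 (interval -0.63 to 0.32).

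The leading copies of both amino acids kept overlapping shares. The copy chr5.trna1315 made up 39.66% ± 6.16 (n = 3) of the phenylalanine counts at E13.5 and 32.23% ± 6.20 (n = 8) at E18.5 (exact permutation p 0.121, adjusted p 0.152). The copy chr10.trna857 made up 47.32% ± 10.53 of the tryptophan counts at E13.5 and 47.54% ± 8.12 at E18.5 (exact permutation p 0.97, n = 3 and 8). Of the 5 phenylalanine copies and 1 tryptophan copy tested by stage, none was called with all samples, and their log2 fold changes lay between -0.41 and 0.50. The lowest, chr5.trna1315, was called lower without E13.5 Nsun2-/- replicate 2 (-0.67, edgeR adjusted p 0.026) and between the WT samples (-0.90, adjusted p 0.0325).

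**Figure D4:**
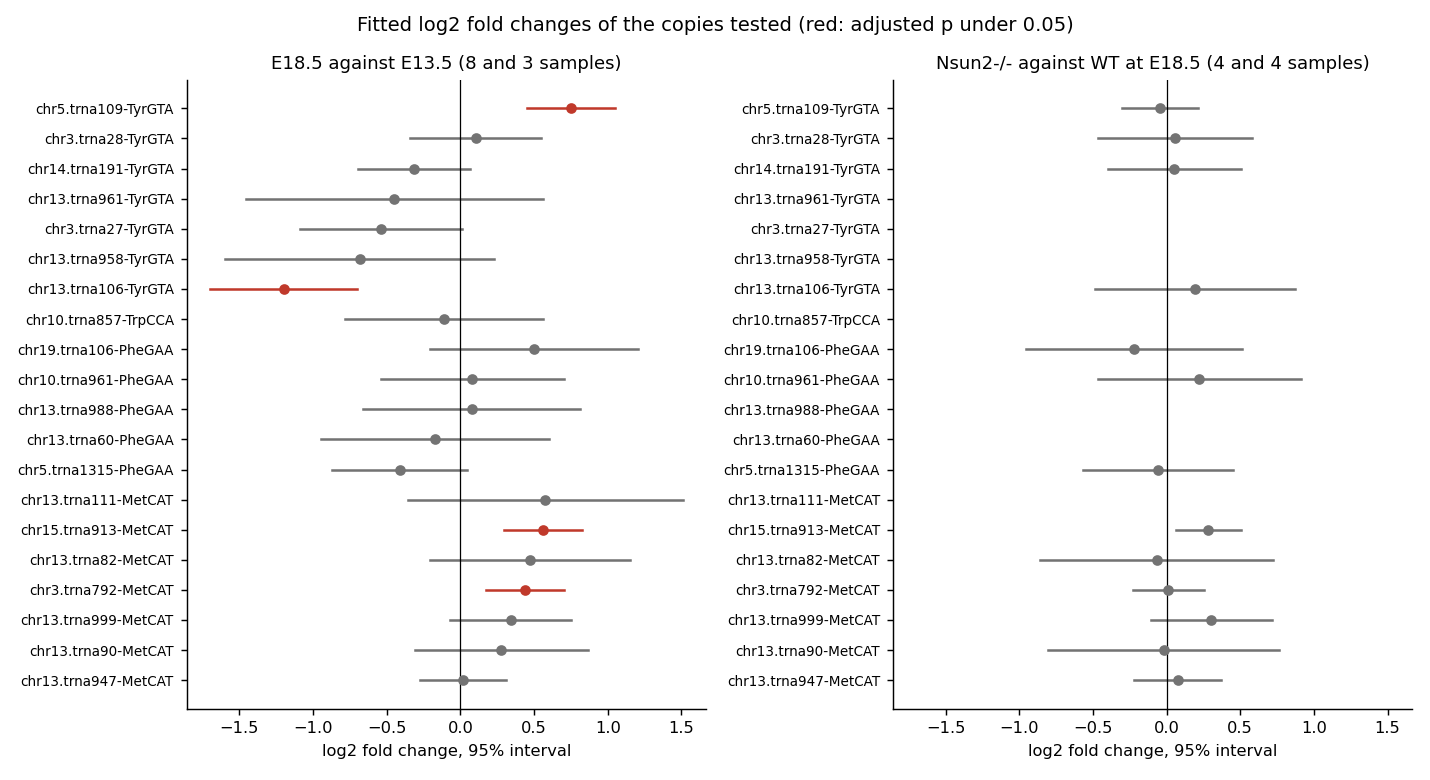
Log2 fold changes with 95% intervals from edgeR for the copies tested, by stage (left, 20 copies) and by genotype at E18.5 (right, 13 copies, with an empty line where a copy did not pass the filter). Red marks an adjusted p under 0.05, which chr5.trna109, chr15.trna913 and chr3.trna792 reach above 0 and chr13.trna106 below 0 by stage, and no copy by genotype.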

How the data were processed

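Small RNA was sequenced from 11 frontal lobe samples, and groups and replicate numbers were taken from the labels. The authors deposited raw counts per tRNA gene. Per the file headers, featureCounts 1.4.4 counted reads on an mm9 tRNA annotation with multi-mapping and overlapping assignment allowed. The study's methods name bowtie, at most 2 mismatches, reads with a single best place, trimming of CCA from unplaced reads, and GRCm38. None of the 43 tRNA starts matched a RefSeq tRNA start of GRCm38, so positions are those of the tables. Whether identical reads were merged is not given in the sources used here. No strand option appears in the header. Each tRNA gene was taken as its interval minus 40 nt.

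Counts were tested with the quasi-likelihood test of edgeR 4.0.16 in R 4.3.3 (TMM, filterByExpr with a minimum count of 10, Benjamini-Hochberg over all features), per gene and per family, and an adjusted p under 0.05 was a call. The comparisons were genotype at E18.5 (8 samples), genotype at E13.5 and its interaction with stage (11 samples, 4 groups), and stage (11 samples, genotype as covariate). With 1 WT sample at E13.5, the filter of the fits of 11 samples let a gene in on a single library. Shares were compared with exact permutation tests (scipy 1.17.1). Replicates are separate samples that the methods call independent biological replicates. Of the 12 pairs within the E18.5 groups, 6 differed by no more than sampling noise and were kept apart. Wilson intervals and the floor of 3 counts cover counting error only, since PCR reads are not independent molecules. On simulated counts with a log2 change of 1, the test recovered 90.9% of changed genes for genotype at E18.5 and 87.9% for stage, where 42.1% of changes of 0.5 were recovered. False calls over all runs were 25, 72 and 8 in this order. The simulation gave every gene the same fixed spread, which was not estimated from these samples, and equal numbers of rises and falls. Its rates therefore do not measure the power of the tests on the real counts.

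Genes, groupings and comparisons were chosen with earlier results of these data known. Named copies are those that together hold 80% of an amino acid's counts, and those called. Other copies are named for their sequence alone. Alternatives were other scalings, DESeq2 1.42.0, other filters, other sample sets, the replicate number as a block and each sample left out. Library factors of the gene table, merging of near-identical pairs and shares by stage were added after seeing the data.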

Additional observations from a re-analysis of the deposited data

How the results depend on the processing

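Of 623 alternative values of 48 results, 534 were marked as unchanged, 67 changed sign and none of these passed the threshold. Unchanged meant the same direction and side of the threshold for fits and share tests. Shares pooled over a genotype were judged by direction alone, and 2 calls in place of 3 were marked as unchanged. E18.5 shares with 1 sample left out could not pass, since their smallest possible exact permutation p is 0.0571. At E18.5, the genotype change of initiator-length methionine (log2) was -0.006 with DESeq2 and with its size factors, -0.008 with close pairs merged, -0.016 with library size only and -0.032 with upper-quartile scaling. Phenylalanine was 0.004 in 1 fit of 11 samples, 0.027 with at least 10 counts in every sample, 0.036 without filter and 0.013 with sums per amino acid. Tyrosine in these settings was 0.008, 0.030, 0.040 and 0.017, and 0.002 with the gene table's factors. The copy chr3.trna792 was -0.029 with at least 10 counts in every sample, -0.005 with pairs merged, -0.011 with library size only and -0.107 with upper-quartile scaling, which moved the median of all genes by -0.122.

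By stage, tyrosine was 0.001 with DESeq2 size factors, 0.003 with DESeq2, 0.007 with the gene table's factors and without filter, 0.054 with library size only and 0.125 in WT. Phenylalanine was 0.013 with library size only and 0.218 in Nsun2-/- alone, where tryptophan was 0.054, methionine lost its call (0.299) and the leading tryptophan copy's share changed by -7.39 points. Initiator-length methionine passed with the gene table's factors (0.259), library size only (0.309) and in WT (0.403). Lower calls were 2, not 1, in Nsun2-/- alone and in WT.

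Leaving out single samples gave, at E18.5 by genotype, -0.021 to 0.113 for initiator-length methionine, -0.077 to 0.049 for phenylalanine, -0.077 to 0.085 for tyrosine, -0.086 to 0.118 for chr3.trna792, -0.174 to 0.131 for chr5.trna1315 and -0.108 to 0.022 for chr5.trna109. Share differences were -3.53 to 2.90 points for chr5.trna1315, -2.78 to 0.32 for chr5.trna109 and -7.97 to 1.22 for chr10.trna857. By stage it gave 0.161 to 0.328 for initiator-length methionine, -0.211 to 0.231 for phenylalanine, -0.068 to 0.068 for tyrosine, -0.258 to 0.062 for tryptophan, 1 to 2 lower calls, and share differences of -4.58 to -2.95 points for initiator-length copies, 15.71 to 19.29 for chr5.trna109 and -5.59 to 4.68 for chr10.trna857. At E13.5 the phenylalanine change lay between -1.090 and -0.371, and its interaction between 0.375 and 1.094. The cause of these shifts was not tested.

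Replicate numbers were not shown to pair the samples. Correlations of same-numbered E18.5 samples were 0.251, 0.100, 0.207 and -0.115, and 2 of 4 numbers matched best with themselves. The mean was 0.111 for same numbers and -0.039 for different numbers, and whether the numbers mark pairs was not tested. With the replicate block, 0 copies were called by genotype at E18.5, and phenylalanine and tyrosine changed sign by stage (0.082 and 0.028). A block could not be fitted at E13.5, where the genotypes share 1 number. Low totals limit all copies outside the filter, and tryptophan most.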
